A study of Mus musculus with 10 samples.

Results

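The respiratory chain of mitochondria was examined in cultured mouse lung fibroblasts through 91 nuclear genes whose symbols begin with Nduf, Uqcr, Cox4 to Cox8 or Atp5, or are Sdha, Sdhb, Sdhc, Sdhd or Cyc1. They are 91 of the 18193 genes tested. They comprise 34 subunit genes and 8 named assembly factors of complex I, 4 genes of complex II, 9 of complex III, 19 of complex IV and 17 of complex V. The gene table held 97 protein-coding genes with such symbols, and those outside the 91 are not analysed here. The tested cells were carcinoma-associated fibroblasts (CAF), set against normal lung fibroblasts, with 5 arrays each, which the titles number as biological replicates. Both kinds of cell were taken from mouse lungs, expanded for 10 to 14 days with 10% serum, replated, and grown overnight before total RNA was extracted. No strain, genotype, age or tumour model is given in the labels. Each level below is a log2 value from an Affymetrix Mouse430_2 array, normalised by the robust multi-array average method, which gives no detection call.

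The respiratory chain passes electrons from NADH, through complex I, and from succinate, through complex II, to ubiquinone, then through complex III and cytochrome c to complex IV, where oxygen is reduced to water. Complexes I, III and IV pump protons across the inner mitochondrial membrane, and complex V, the ATP synthase, uses the return of these protons to make ATP. Most subunits are encoded in the nucleus and imported, and a small set is encoded by mitochondrial DNA. The transcription factors NRF1, GABP and YY1 are known for binding the promoters of many of the nuclear genes.

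Promoter windows, which run from 250 bases before to 50 bases after a start site, were found in the RefSeq table for 74 of the 91 genes, with 79 windows in all. The core of the NRF1 motif, CGCATGCG, which reads the same on both strands, was present in 10 of the 79 windows (12.7%), against 2.88% of the windows of all genes tested and 1.87% of all 32851 windows. The YY1 motif AAGATGGC, searched on both strands, was present in 10 windows (12.7%), against 3.38% of the windows of genes tested and 2.75% of all. The GABP motif ACTTCCGG, likewise searched, was present in 5 (6.33%), against 5.83% and 3.89%. A match is a run of letters in a window, not a measured binding site. The 4 stretches here are shown because they hold the NRF1 core upstream of the start site in genes whose array values differ in kind, and were picked after those values were seen. Each is 180 bases long, on the gene's own strand of GRCm38.p6, with the motif in capitals.
Ndufaf4, chr4:24897903-24898082, plus strand: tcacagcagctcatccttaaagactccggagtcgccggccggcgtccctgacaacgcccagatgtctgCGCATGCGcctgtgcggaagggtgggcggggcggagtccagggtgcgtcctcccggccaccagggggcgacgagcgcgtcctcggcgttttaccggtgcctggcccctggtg
Atp5k, chr5:108434400-108434579, minus strand: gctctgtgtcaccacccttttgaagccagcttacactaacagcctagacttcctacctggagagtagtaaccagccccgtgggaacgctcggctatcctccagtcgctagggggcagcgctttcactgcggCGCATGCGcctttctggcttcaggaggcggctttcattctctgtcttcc
Cox6a1, chr5:115348959-115349138, minus strand: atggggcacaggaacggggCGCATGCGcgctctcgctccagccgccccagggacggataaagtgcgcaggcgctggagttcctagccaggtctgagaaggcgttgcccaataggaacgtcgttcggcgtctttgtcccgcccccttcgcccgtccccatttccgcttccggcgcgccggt
Atp5g2, chr15:102671048-102671227, minus strand: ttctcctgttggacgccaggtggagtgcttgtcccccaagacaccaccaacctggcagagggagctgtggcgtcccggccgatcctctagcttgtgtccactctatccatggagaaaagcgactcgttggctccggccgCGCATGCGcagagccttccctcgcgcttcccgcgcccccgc
The motif begins 112 bases before the start site in Ndufaf4, 49 bases before it in Atp5k, 161 in Cox6a1 and 41 in Atp5g2. The other windows with it were those of Ndufa8, Ndufaf5, Atp5j, Atp5l, Uqcrc1 and Uqcr11. Among these genes Ndufaf4 varied widely between normal arrays, Atp5k and Atp5g2 had lower means in CAF, and Cox6a1 was almost level throughout, as given below.

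The array medians over all probe sets were 6.73 to 6.74 in CAF and 6.76 to 6.79 in normal cells. All 9 fibroblast markers were bright in both groups, with a mean level of 12.44 to 13.96 over the CAF arrays and 12.52 to 14.50 over the normal arrays. The 7 macrophage markers were also above the median gene level, and their mean ran from 10.56 to 13.05 in CAF and from 9.50 to 13.11 in normal cells. In the codes of the labels, all 5 CAF arrays and normal 4 and 5 carry the letters ls, and normal 1 to 3 carry vs; what these letters mean is not stated. In RNA from whole cultures, fewer cells of a type and less RNA per cell cannot be told apart.

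No respiratory chain gene passed the test between CAF and normal fibroblasts. The levels tended to be lower in CAF by small amounts: 84 of the 91 genes (92.3%) had a lower mean in CAF, against 57.3% of all genes, and the median difference was -0.14 log2 units, against -0.04 over all genes. At an adjusted p under 0.05 from limma, which tests each gene against its spread within the groups, 0 members were called, and 0.753% of all genes were. Without adjustment, 5 members (5.49%) had a p under 0.05, against 22.3% of all genes. Those 5 were Atp5mpl, Cox8c, Atp5a1, Atp5k and Cox7a2l, all lower in CAF, where 11.8% of all genes had such a p and a lower mean and 10.5% a higher one. The differences ran from -0.70 for Ndufa4l2 to 0.23 for Ndufaf4, and without normal 2 these were -0.25 and -0.09. For 87 of the 91 genes the 95% interval of the difference lay within a 2-fold change in either direction. The exceptions were Ndufa4l2, Ndufaf2, Ndufaf6 and Ndufaf4. These limma intervals assume the same spread in both groups, which the members did not show, so some may be too narrow. Most of the members are bright, and for the 83 members at or above the median gene level of 8.11 the median difference was -0.14, against 0.08 for all genes there. The plot of the differences by complex shows how close the members lie.

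**Figure D1:**
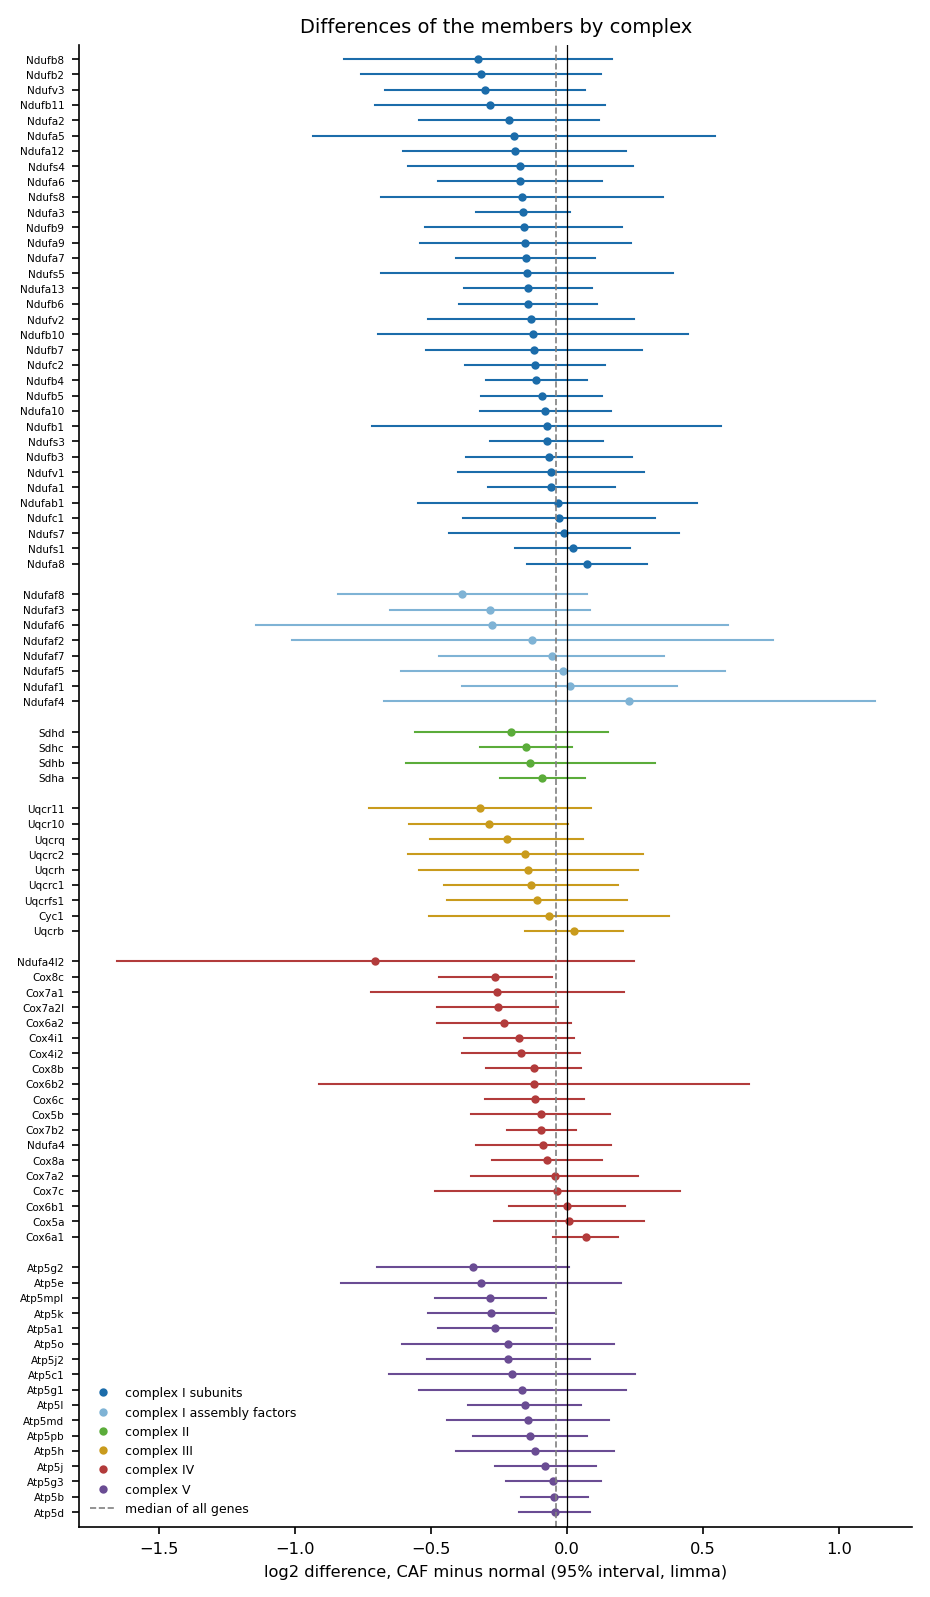
Log2 difference, CAF minus normal, of each of the 91 respiratory chain genes (points) with its 95% interval from limma (bars), grouped by complex; the dashed line is the median of all genes at -0.04. Most points lie a little below 0, most intervals cross 0, and Ndufa4l2 lies farthest out at -0.70.

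The median difference depended on which normal arrays were used. It was -0.05 without normal 3, with 66 genes lower, and -0.09 without normal 4, with 74 lower. It was -0.22 without normal 2, with 90 lower, and 22 genes then had an unadjusted p under 0.05 (24.2%, against 24.3% of all genes). Against the normal arrays with the ls letters alone it was -0.19, and 38 genes (41.8%) had an unadjusted p under 0.05, against 26.6% of all genes. Against the normal arrays with the vs letters alone it was -0.07, and 6 genes did (6.59%, against 18.1%). The members' adjusted p stayed above the threshold in each of these fits, with the lowest at 0.0692 without normal 2.

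The larger contrast between the groups was in spread. CAF arrays gave nearly the same value of each respiratory chain gene, and normal arrays differed from each other with most members moving together. The median SD over the members was 0.0881 log2 units in CAF and 0.312 in normal cells, against 0.145 and 0.213 over all genes. The SD was the larger in normal cells for 87 of the 91 members (95.6%), against 71.1% of all genes and 84.6% of the genes at or above the median level. The median ratio of normal to CAF SD was 3.39 for the members, 1.42 for all genes and 1.80 for the brighter genes. The range over the 5 arrays, taken as a fold, had a median of 1.16 in CAF and 1.71 in normal cells. The 4 members with the larger SD in CAF were Ndufs5, Cox4i2, Cox6a1 and Atp5d. No test was made of the difference in spread. All CAF arrays carry the ls letters, and the normal arrays mix vs and ls. The parts of cell type and of the letters in the spread therefore cannot be told apart.

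**Figure D2:**
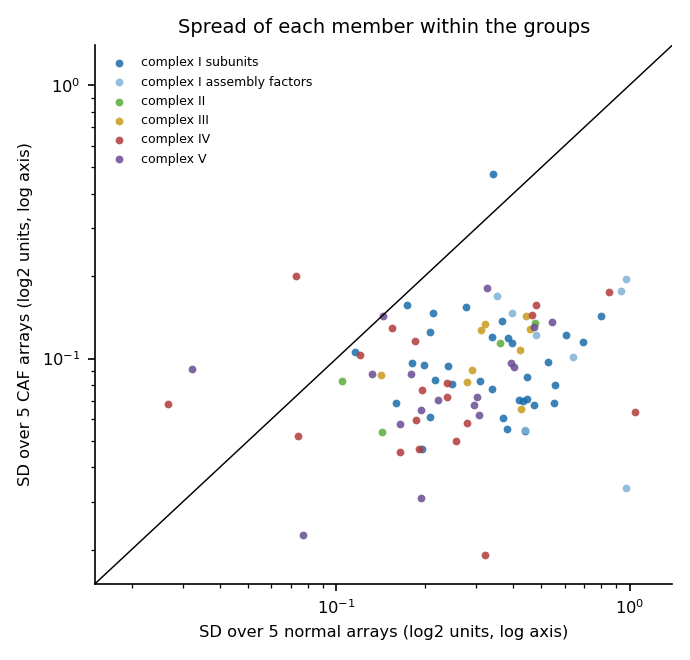
SD of each respiratory chain gene over the 5 CAF arrays (vertical, log2 units, log axis) against its SD over the 5 normal arrays (horizontal, log2 units, log axis), coloured by complex, with a line where both are equal. All but 4 of the 91 points lie below the line, on the side of the larger SD in normal cells.

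Relative to each gene's CAF mean, the median over the 91 members was 0.03 on CAF 1, -0.00 on CAF 2, -0.03 on CAF 3, -0.04 on CAF 4 and 0.04 on CAF 5. On the normal arrays it was -0.02 on normal 1, -0.21 on normal 2, 0.50 on normal 3, 0.30 on normal 4 and 0.10 on normal 5. The normal arrays thus lay on both sides of the CAF arrays, with normal 3 and 4 above and normal 2 below them. Normal 3 was the highest of the 10 arrays for 75 of the 91 members (82.4%), against 16.5% of all genes and 21.4% of the genes at or above the median level. Normal 3 lay above every CAF array for 79 members (86.8%), against 30.6% and 31.8%. Normal 2 was the lowest array for 50 members (54.9%), against 14.8% and 23.7%, and lay below every CAF array for 58 (63.7%), against 26.2% and 41.8%. The median over all genes lay between 0.02 and 0.04 on the normal arrays. That over the brighter genes, the class of most members, was -0.11, -0.15, -0.06, -0.08 and -0.06 on normal 1 to 5. The members' -0.21 on normal 2 stood less apart from these than their 0.50 and 0.30 on normal 3 and 4.

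**Figure D3:**
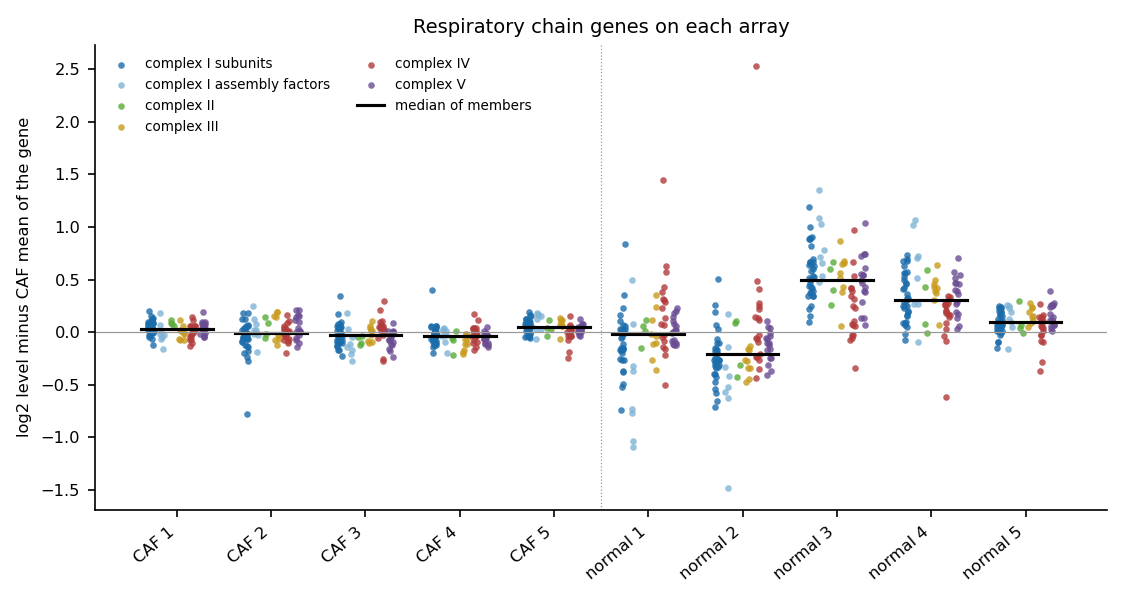
Log2 level minus the gene's CAF mean for the 91 respiratory chain genes (points, coloured by complex) on each of the 10 arrays, CAF left and normal right; black bars are medians. The CAF medians lie between -0.04 and 0.04, and the normal medians run from -0.21 on normal 2 to 0.50 on normal 3.

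The spread was also counted with arrays left out, in counts chosen after the values were seen. Most members move together, so the members in these counts are not independent observations. With any 1 of the 10 arrays left out, the SD was the larger in normal cells for 81 to 88 members (89.0% to 96.7%). The share of all genes was then 63.4% to 73.4%. With normal 3 and 4 both left out it was the larger for 77 members (84.6%, against 63.4% of all genes). With the 2 normal arrays of the ls letters alone it was the larger for 59 members (64.8%, against 35.8%). The median ratio was then 1.69, against 0.707 for all genes. With the 3 arrays of the vs letters alone it was the larger for 86 (94.5%, against 70.5%). The median ratio was then 4.23, against 1.53 for all genes.

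A total of 51 members had further probe sets, 89 in all, which the choice of the brightest probe set had left out. None of the 89 was called with each probe set tested singly, where 429 of all 34945 probe sets were. An unadjusted limma p under 0.05 was found for 10 of the 89, against 22.3% of all genes in the main test. Of the 89, 75 were lower in CAF, and the median difference over the 89 was -0.15. Of the 61 at or above the median gene level, 54 were highest on normal 3. Their medians relative to CAF were -0.06 on normal 1, -0.17 on normal 2, 0.56 on normal 3, 0.39 on normal 4 and 0.14 on normal 5, an order like that of the chosen probe sets.

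Complex I takes electrons from NADH through a flavin and a chain of iron-sulfur clusters to ubiquinone. Of its 34 subunit genes 0 passed the test and 32 were lower in CAF, with a median difference of -0.14. Normal 3 was above every CAF array for all 34, and the highest of all arrays for 32. Ndufv1, which binds the flavin and NADH, had levels of 11.90, 12.15, 12.01, 11.84 and 11.93 on CAF 1 to 5 and of 11.70, 11.67, 12.46, 12.23 and 12.06 on normal 1 to 5. Its CAF values lay inside the span of the normal ones, and the difference was -0.06 ± 0.15 (SE; limma adjusted p = 0.843). Ndufv2, its iron-sulfur partner, differed by -0.13 ± 0.17 (adjusted p = 0.670). Ndufs1, which carries further iron-sulfur clusters of the same arm, differed by 0.02 ± 0.09 (adjusted p = 0.917).

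Ndufs3, Ndufs7 and Ndufs8 form part of the arm that leads to ubiquinone. Ndufs8 measured 13.15, 13.01, 13.15, 12.97 and 13.06 in CAF, against 12.80, 12.59, 13.95, 13.60 and 13.24 in normal cells. The CAF values were close together, and the normal ones reached both below and above them, a 2.56-fold span. The difference was -0.17 ± 0.23 (adjusted p = 0.698). The differences of Ndufs3 and Ndufs7 were -0.08 and -0.01. The subunits with the smallest p were accessory ones, Ndufa3 at -0.16 ± 0.08 (adjusted p = 0.248), Ndufv3 at -0.30 ± 0.16 (adjusted p = 0.309; 0.02 against the ls normal arrays and -0.52 against the vs ones) and Ndufb2 at -0.32 ± 0.20 (adjusted p = 0.365). The opposite direction was led by Ndufa8, also accessory, at 0.07 ± 0.10 (adjusted p = 0.682).

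Ndufa5, an accessory subunit picked after its values were seen, had the widest span in normal cells of the complex I subunits. Its levels were 11.68, 11.51, 11.30, 11.59 and 11.58 in CAF, against 10.80, 11.10, 12.72, 12.27 and 11.76 in normal cells. Normal 1 and 2 lay below every CAF array and normal 3, 4 and 5 above every CAF array, with a 3.80-fold span in normal cells and 1.30-fold in CAF. A second probe set of Ndufa5 gave 10.82, 10.88, 10.56, 10.93 and 10.89 in CAF, against 10.16, 10.39, 11.83, 11.54 and 11.11 in normal cells, with the same order on the normal arrays.

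Some subunits stood outside this order. Ndufv3 was highest on normal 1: its levels were 12.53, 12.22, 12.24, 12.22 and 12.40 in CAF, against 13.15, 12.82, 12.54, 12.30 and 12.29 in normal cells. Ndufs5, named here after its values were seen, had the largest span within CAF, 2.27-fold, from 11.40 on CAF 2 alone while the other CAF arrays lay between 12.19 and 12.59. A probe set shared by Ndufs5 and its pseudogene was also lowest on CAF 2, at 11.82, with 12.29 to 12.57 on the other CAF arrays. Ndufb4 was dim on its own probe set, near 5. A brighter probe set that it shares with Ndufb4b and Ndufb4c gave 12.73, 12.34, 12.60, 12.71 and 12.63 in CAF, against 12.55, 12.28, 13.34, 13.03 and 12.60 in normal cells, with normal 3 and 4 again on top.

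The assembly factors of complex I, which help build the enzyme without remaining in it, spread the most between normal arrays among the complexes and these factors. Their median SD was 0.134 in CAF and 0.561 in normal cells. They were also less bright than the complex I subunits, with mean levels of 9.69 to 9.88 on the CAF arrays against 12.13 to 12.24. The part of brightness in the spread was not tested. None of the 8 passed the test, 6 were lower in CAF, and the median difference was -0.09, but it was 0.10 without normal 3 and 0.04 without normal 4. Ndufaf4, which acts early in building the arm that leads to ubiquinone and holds the first promoter printed above, measured 10.60, 11.00, 10.55, 10.72 and 10.91 in CAF. On normal arrays it measured 9.72, 9.27, 11.24, 11.46 and 10.95, a 4.56-fold span against 1.37-fold in CAF. Normal 1 and 2 were below every CAF array and normal 3 and 4 above. The difference was 0.23 ± 0.40 (adjusted p = 0.766), and it was -0.09 without normal 2, -0.45 against the ls normal arrays and 0.68 against the vs ones. A second Ndufaf4 probe set gave 9.04, 9.08, 8.76, 8.95 and 9.30 in CAF, against 8.26, 7.59, 9.13, 9.54 and 9.00 in normal cells.

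Ndufaf2, a chaperone related to the subunit Ndufa12 and picked after its values were seen, had nearly the same level on all CAF arrays, 9.57, 9.62, 9.55, 9.61 and 9.62. On normal arrays it measured 8.50, 8.97, 10.68, 10.61 and 9.84. Normal 1 and 2 were again below every CAF array, normal 3, 4 and 5 above, and the spans were 1.06-fold in CAF and 4.52-fold in normal cells. Ndufaf6 spanned 1.37-fold in CAF and 4.24-fold in normal cells, with a difference of -0.27 ± 0.39 (adjusted p = 0.702). Ndufaf8, a partner of Ndufaf5, differed by -0.38 ± 0.20 (adjusted p = 0.298), and Ndufaf3, a partner of Ndufaf4, by -0.28 ± 0.16 (adjusted p = 0.333). The direction of Ndufaf3 turned with the label letters, at 0.02 against the ls normal arrays and -0.48 against the vs ones. Of 8 further assembly factors of complex I without an Nduf name, 0 were called and 4 were lower, with a median difference of -0.02.

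Complex II, succinate dehydrogenase, is shared with the citric acid cycle and has all its subunits encoded in the nucleus. All 4 genes had lower means in CAF, with 0 calls and a median difference of -0.14. The flavoprotein Sdha measured 11.88, 11.71, 11.67, 11.78 and 11.79 in CAF, against 11.82, 11.87, 12.03, 11.75 and 11.80 in normal cells. These ranges overlapped, and the difference was -0.09 ± 0.07 (adjusted p = 0.465). A second bright Sdha probe set differed in the opposite direction, by 0.09 ± 0.07. The iron-sulfur subunit Sdhb had 13.01, 13.04, 12.91, 12.73 and 13.07 in CAF, against 12.81, 12.53, 13.62, 13.54 and 12.94 in normal cells. Its normal arrays spanned 2.13-fold, with normal 3 and 4 on top, and the difference was -0.13 ± 0.20 (adjusted p = 0.723). The membrane anchors Sdhc and Sdhd differed by -0.15 ± 0.08 (adjusted p = 0.274) and -0.20 ± 0.16 (adjusted p = 0.469).

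Complex III passes electrons from ubiquinol to cytochrome c. Of its 9 genes 0 were called, 8 were lower in CAF, and the median difference was -0.14. All 9 were lowest on normal 2, and 8 were highest on normal 3. Cyc1, cytochrome c1, measured 12.40, 12.61, 12.48, 12.28 and 12.54 in CAF, against 12.10, 11.98, 12.97, 12.91 and 12.66 in normal cells. Normal 1 and 2 lay below every CAF array and the other normal arrays above every CAF array, so that the means almost matched, at a difference of -0.07 ± 0.20 (adjusted p = 0.869). The Rieske iron-sulfur protein Uqcrfs1 differed by -0.11 ± 0.15 (adjusted p = 0.687), and the core proteins Uqcrc1 and Uqcrc2 by -0.13 ± 0.14 (adjusted p = 0.608) and -0.15 ± 0.19 (adjusted p = 0.666).

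Among the small subunits of complex III, Uqcr10 had the smallest p. It measured 12.61, 12.47, 12.70, 12.53 and 12.65 in CAF, against 12.94, 12.47, 13.24, 13.01 and 12.75 in normal cells. All normal arrays but normal 2 were above every CAF array, and the difference was -0.29 ± 0.13 (adjusted p = 0.229). The other Uqcr10 probe sets, both dimmer than this one, differed by 0.08 ± 0.28 and -0.08 ± 0.21. They put normal 1 below every CAF array, at 9.60 against 10.08 to 10.55 in CAF and at 10.16 against 10.47 to 10.80 in CAF. Uqcrq differed by -0.22 ± 0.13 (adjusted p = 0.324) and Uqcr11 by -0.32 ± 0.18 (adjusted p = 0.327). Uqcrb was the only member of this complex with a higher mean in CAF, at 0.03 ± 0.08 (adjusted p = 0.875), and a second bright Uqcrb probe set differed by -0.19.

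**Figure D4:**
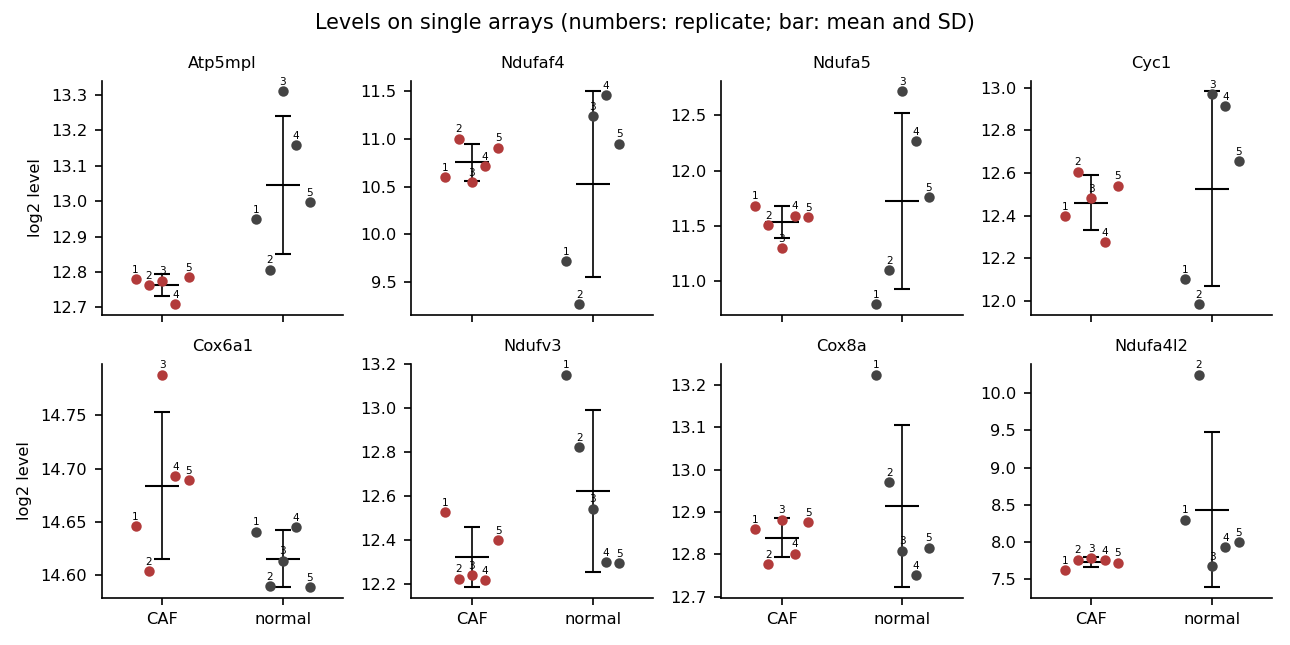
Log2 levels of 8 respiratory chain genes on single arrays (points, numbered by replicate; CAF in red at the left, normal in grey at the right; bars give mean and SD, n = 5 each), with a separate vertical scale for each gene. Atp5mpl does not overlap between the groups, Ndufaf4, Ndufa5 and Cyc1 lie on both sides of CAF in normal cells, Cox6a1 spans little, Ndufv3 and Cox8a are highest on normal 1, and Ndufa4l2 stands at 10.25 on normal 2.

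Complex IV, cytochrome c oxidase, has several nuclear subunits that exist as isoforms of different tissues. Of its 19 genes, Ndufa4 and its paralogue Ndufa4l2 included, 0 passed the test and 17 were lower in CAF, with a median difference of -0.12. Normal 3 was the highest array for 8 of the 12 genes at or above the median gene level and for 2 of the 7 dimmer ones. The dimmer ones were Cox4i2, Cox6b2, Cox7a1, Cox7b2, Cox8b, Ndufa4l2 and the Cox7c probe set, and their levels may be background. Cox4i1, the widespread isoform of the subunit, measured 14.10, 14.05, 14.09, 13.96 and 14.00 in CAF, against 14.18, 14.01, 14.46, 14.36 and 14.08 in normal cells. Its highest values were on normal 3 and 4, and the difference was -0.18 ± 0.09 (adjusted p = 0.279). Cox4i2, the isoform known from lung and from hypoxia, was dim and differed by -0.17 ± 0.10 (adjusted p = 0.326). Cox5a and Cox5b, which are nuclear subunits too, differed by 0.01 ± 0.12 (adjusted p = 0.977) and -0.10 ± 0.11 (adjusted p = 0.643).

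Cox6a1, the widespread isoform of a regulatory subunit, was the steadiest across normal arrays. It measured 14.65, 14.60, 14.79, 14.69 and 14.69 in CAF, against 14.64, 14.59, 14.61, 14.65 and 14.59 in normal cells. Its normal span was 1.04-fold, below its CAF span of 1.14-fold, and the difference was 0.07 ± 0.05 (adjusted p = 0.468). A second Cox6a1 probe set spanned 13.59 to 13.71 in CAF and 13.62 to 13.72 in normal cells. The muscle isoform Cox6a2 differed by -0.23 ± 0.11 (adjusted p = 0.245) and was highest on normal 1, at 8.86. Its mean of 8.35 was close to the median gene level and may be background, and its other probe set was dim, at 5.68.

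The Cox6b, Cox7a and Cox8 isoforms did not share 1 pattern. Cox6b1, the widespread isoform, had equal means of 14.24 ± 0.08 in CAF and 14.24 ± 0.20 in normal cells (SD, n = 5 each; adjusted p = 0.999). Its testis isoform Cox6b2 was dim in most arrays and measured 7.79, 7.72, 8.13, 7.89 and 8.07 in CAF, against 9.37, 8.40, 7.58, 7.31 and 7.55 in normal cells. Normal 1 and 2 were above every CAF array and normal 3, 4 and 5 below, the reverse of the usual order. Cox7a2, the widespread isoform, had an SD of 0.0191 in CAF and 0.320 in normal cells and differed by -0.04 ± 0.14 (adjusted p = 0.871). Cox7a1, the heart and muscle isoform, was dim. Cox7a2l, which joins complexes III and IV into supercomplexes, measured 12.79, 12.64, 12.70, 12.47 and 12.61 in CAF, against 12.95, 12.76, 13.17, 12.91 and 12.70 in normal cells. The groups overlapped only through normal 2 and 5, and the difference was -0.26 ± 0.10 (adjusted p = 0.174).

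Cox8a, the widespread isoform of the smallest subunit, measured 12.86, 12.78, 12.88, 12.80 and 12.88 in CAF, against 13.22, 12.97, 12.81, 12.75 and 12.82 in normal cells. Normal 1 and 2 were above every CAF array and normal 4 below, and a second bright probe set repeated this with 13.09 and 12.93 on normal 1 and 2 and 12.76 to 12.87 in CAF. The difference was -0.07 ± 0.09 (adjusted p = 0.659). Cox8c, known from testis, differed by -0.26 ± 0.09 (adjusted p = 0.142) at levels of 8.12 to 8.47 in CAF and 8.38 to 8.73 in normal cells. These levels were close to the median gene level of 8.11 and may be background too. The other Cox8c probe set was dim, with a mean of 6.65. Cox8b, the heart and muscle isoform, was dim and differed by -0.12 ± 0.08 (adjusted p = 0.371).

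Ndufa4 is a subunit of complex IV despite its name, and Ndufa4l2 is a paralogue known as a target of hypoxia signalling. Ndufa4 differed by -0.09 ± 0.11 (adjusted p = 0.673). Ndufa4l2 measured 7.62, 7.76, 7.78, 7.75 and 7.72 in CAF, against 8.30, 10.25, 7.68, 7.93 and 8.00 in normal cells. Normal 2 stood apart, and no span is given, since the lower values may be background. The difference was -0.70 ± 0.43 (adjusted p = 0.351), and it was -0.25 without normal 2.

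Complex V, the ATP synthase, had lower means in CAF for all 17 genes, with 0 calls and a median difference of -0.17. The catalytic head holds Atp5a1 (alpha), Atp5b (beta) and Atp5c1 (gamma). Atp5a1 measured 13.62, 13.79, 13.42, 13.48 and 13.60 in CAF, against 13.81, 13.64, 14.01, 13.94 and 13.84 in normal cells. Only CAF 2 reached into the normal range, and the difference was -0.26 ± 0.09 (adjusted p = 0.144). A bright second Atp5a1 probe set differed by -0.18 ± 0.10. Atp5b, the catalytic subunit, was almost equal, at 14.20 ± 0.02 in CAF and 14.25 ± 0.08 in normal cells (SD, n = 5 each; adjusted p = 0.639). Atp5c1, the shaft, measured 13.34, 13.40, 13.12, 13.11 and 13.26 in CAF, against 13.13, 12.84, 13.99, 13.79 and 13.51 in normal cells. Its normal values reached both sides of CAF, and the difference was -0.20 ± 0.20 (adjusted p = 0.577).

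Atp5mpl, a small membrane protein of the synthase, was the only member whose groups did not overlap on the chosen probe sets. Further probe sets of Uqcrh, Atp5j2 and Uqcrq did not overlap either, with CAF below normal cells. The bright one, of Uqcrh, had 12.64 to 12.85 in CAF and 12.89 to 13.2 in normal cells. Its difference was -0.27 ± 0.08 (limma adjusted p = 0.0905 with every probe set tested singly). Atp5mpl measured 12.78, 12.76, 12.78, 12.71 and 12.79 in CAF, against 12.95, 12.81, 13.31, 13.16 and 13.00 in normal cells. Every CAF value was below every normal one, which also held for 4.19% of all genes, and the members' share was 1.1%. No member lay wholly above in CAF, as 2.97% of all genes did. The difference was -0.28 ± 0.09 (adjusted p = 0.124), a level in CAF 0.823 times that of normal cells. Atp5k, subunit e of the membrane part, measured 13.33, 13.25, 13.22, 13.14 and 13.27 in CAF, against 13.26, 13.35, 13.78, 13.70 and 13.52 in normal cells. All normal arrays but normal 1 were above every CAF array, and the difference was -0.28 ± 0.10 (adjusted p = 0.160). With arrays weighted by limma for how closely they follow the fit, Atp5mpl, Atp5k and Atp5a1 passed at adjusted p of 0.0366, 0.0432 and 0.0488. That fit called 3.37% of all genes as lower and 8.78% in either direction.

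The 3 genes of the c ring, Atp5g1, Atp5g2 and Atp5g3, encode the same mature protein with different import sequences. Atp5g2 measured 12.77, 12.89, 12.44, 12.56 and 12.73 in CAF, against 12.88, 12.56, 13.42, 13.19 and 13.07 in normal cells. Normal 3, 4 and 5 were above every CAF array, and the difference was -0.35 ± 0.16 (adjusted p = 0.230). Atp5g1 differed by -0.17 ± 0.17 (adjusted p = 0.590) and Atp5g3 by -0.05 ± 0.08 (adjusted p = 0.726). The inhibitor of the synthase, Atpif1, whose symbol lies outside the rule, had 12.45 ± 0.12 in CAF and 12.71 ± 0.42 in normal cells (SD, n = 5 each). Its difference was -0.26 ± 0.18 (adjusted p = 0.417), and it too was highest on normal 3, at 13.23.

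Other mitochondrial genes were read from lists beside the members, and 0 genes were called in each of them. Of the 76 mitochondrial ribosomal proteins, which translate the mitochondrially encoded subunits, 56 were lower in CAF, with a median of -0.14. Their medians relative to CAF were -0.37, -0.55, 0.76, 0.61 and 0.17 on normal 1 to 5, in the order of the members and wider apart. All 76 had the larger SD in normal cells, and 64 were highest on normal 3. The smallest p among them were those of Mrpl24 at -0.34 ± 0.17 (adjusted p = 0.270) and, in the other direction, Mrps2 at 0.22 ± 0.12 (adjusted p = 0.293). Of the 23 import genes, 18 were lower, with a median of -0.10. The smallest p among these 23 was that of Timm29, of the inner membrane translocase, which was higher in CAF, at 0.30 ± 0.11 (adjusted p = 0.152). Of the 49 cytosolic ribosomal proteins, 47 were lower, with a median of -0.14 and medians of -0.02, 0.00, 0.30, 0.26 and 0.13 on normal 1 to 5. The 15 genes of the citric acid cycle and pyruvate dehydrogenase had a median of 0.09, led by Dld, the shared lipoamide dehydrogenase, at 0.23 ± 0.08 (adjusted p = 0.127), with Idh2, the mitochondrial isocitrate dehydrogenase, at -0.89 ± 0.53 (adjusted p = 0.344).

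The 1 mitochondrially encoded gene that was tested ran against the nuclear genes. ND5, a complex I subunit, measured 14.00, 13.84, 14.10, 14.26 and 14.16 in CAF, against 13.82, 13.99, 12.78, 13.15 and 13.80 in normal cells. It was lowest on normal 3 and 4, where most nuclear members were highest, and the difference was 0.56 ± 0.22 (adjusted p = 0.181).

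Of 16 glycolysis and lactate genes, 9 were lower in CAF, with a median of -0.11. Their medians relative to CAF were 0.20, 0.49, -0.07, -0.02 and -0.08 on normal 1 to 5, highest on normal 2, where the members were lowest. Hk2, the hexokinase bound to mitochondria, had a difference of 0.85 ± 0.17 (adjusted p = 0.0534), and Tpi1, triosephosphate isomerase, of -0.57 ± 0.13 (adjusted p = 0.0676). Of 17 regulators of respiratory gene transcription, 9 were lower, with a median of -0.04. Tfb2m, which opens mitochondrial promoters, differed by 0.39 ± 0.08 (adjusted p = 0.0579) and Gabpb2, a GABP subunit, by -0.41 ± 0.11 (adjusted p = 0.0867). Nrf1 itself measured 8.39, 9.12, 8.68, 8.42 and 8.75 in CAF, against 8.24, 8.24, 9.41, 9.36 and 8.87 in normal cells, with normal 3 and 4 above every CAF array and normal 1 and 2 below. Tfam, which packages mitochondrial DNA, measured 9.79, 9.79, 9.67, 9.59 and 9.77 in CAF, against 9.60, 9.33, 10.49, 10.32 and 9.90 in normal cells, with normal 3, 4 and 5 above every CAF array. Nrf1 and Tfam were named after their values were seen.

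Proliferation genes varied more than the members and in both groups. Relative to CAF means, the median of 9 such genes was 0.38, 1.58, -2.41, 0.38 and 0.37 on CAF 1 to 5, against -0.39, -1.62, 2.22, 2.25 and 1.99 on normal 1 to 5. Among normal arrays they were lowest on normal 2 and high on normal 3 and 4, as the members were. Among CAF arrays they spanned 1.58 to -2.41 while the members' medians stayed between -0.04 and 0.04. Their part in the members' levels was not tested. Macrophage markers had medians of 1.49, -0.68, -1.16, -0.48 and 0.70 on CAF 1 to 5, against 1.41, -2.35, 0.35, -0.68 and -1.78 on normal 1 to 5, and their part was not tested either. Fibroblast markers had a median of 1.10 on normal 2 and of -0.28 to 0.21 on the other normal arrays. Of the 7 epithelial markers, 5 were below the median gene level, Cdh1 and Scgb1a1 near 5 on most arrays, and 6 had lower means in CAF, with a median difference of -0.42. Their mean level ran from 6.26 to 7.61 in CAF and from 6.51 to 8.00 in normal cells, 5 of the 7 were highest on normal 3, and their median relative to CAF was 0.70 there and -0.09 to 0.19 on the other normal arrays. The part of either list in the members' levels was not tested. All 4 endothelial markers were below the median gene level.

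**Figure D5:**
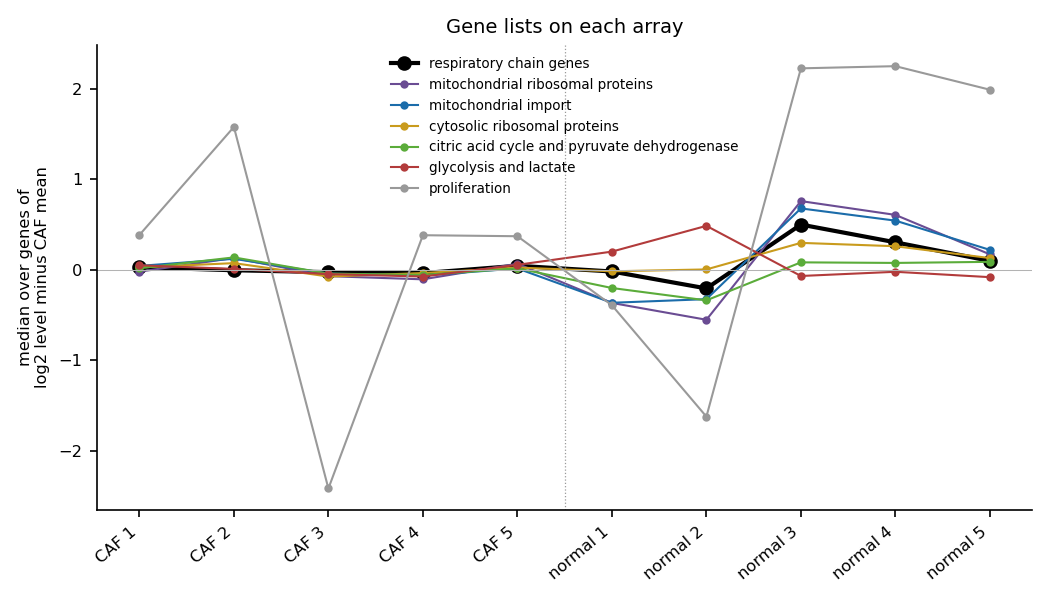
Median over the genes of a list of the log2 level minus the gene's CAF mean (vertical axis) on each array, CAF left and normal right, for the respiratory chain genes (black) and other lists (colours). The respiratory chain line is flat over CAF and ranges from -0.21 to 0.50 over normal arrays, mitochondrial ribosomal proteins range from -0.55 to 0.76 there, and proliferation genes range widely in both groups.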

How the data were processed

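Total RNA of each culture (6 ug) was labelled and hybridised to 1 array. The deposited values are log2 levels of each probe set on the 10 arrays. The submitters' processing notes name RMA, Affymetrix Expression Console and limma, with versions not given in the sources used here. RMA evens out overall brightness between arrays, so a difference is relative to the other probe sets. Small differences remained, with upper quartiles of 9.215 to 9.288 on the CAF arrays and 9.047 to 9.122 on the normal arrays. Of 45101 probe sets, 64 controls were left out. Names came from a platform table, with 34945 probe sets of 1 gene symbol, 932 of several and 9160 not listed, and symbols were updated to GRCm38.p6 names for 34741 of them. A gene with several such probe sets (9010 of 18193) was read by the brightest on average.

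The test was limma's (version 3.58.1, R 4.3.3; lmFit, then eBayes), with group as the only term. Differences are CAF minus normal, with the moderated standard error. P-values were adjusted over all 18193 genes (Benjamini-Hochberg) and called under 0.05, and each adjusted p printed is from this fit unless said otherwise. The script was tested on simulated data, drawn with the same SD in both groups and with independent genes, unlike the members here. Precision is limited by 5 arrays a group, and the p-values measure the spread between these cultures. The members and lists were chosen with earlier results of these data known. So were the promoter motifs, and the NRF1 core was searched in place of a longer form whose counts had been seen first. Named members are the core or defining subunits, the tissue isoforms, in each complex the 3 smallest p and the smallest p in the opposite direction, and any called. In the pathway lists they are the smallest p in each direction. For some lists only the smallest p is given, and for others no gene is named. The other alternatives were normalisation, probe set choice, a filter on dim genes, variance model, array weights, replicate block, label letters and leaving out each array. Of 91 members, 16 were read by a probe set with the suffix s or x, which can also match related sequences, and 19 pseudogenes with such symbols were in the gene table.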

Additional observations from a re-analysis of the deposited data

Results flagged for a closer look

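Of 100 groups of 5 arrays, 50 named genes in each cell type, 5 had 1 array far from the other arrays of its group by Dixon's criterion, and chance alone gives about 1 in 20. Ndufa4l2, the paralogue known from hypoxia, was at 10.25 on normal 2, with 7.68 to 8.30 on the other normal arrays. Glycolysis genes also had their highest median on normal 2, at 0.49 above CAF. Sdhc, a membrane anchor of complex II, was at 12.73 on normal 3, with 12.40 to 12.45 on the others. Both complex IV genes Cox5a and Ndufa4 were low on CAF 4, Cox5a at 13.66 with 13.78 to 13.80 on the other CAF arrays and Ndufa4 at 13.14 with 13.30 to 13.33. The dim muscle isoform Cox7a1 was at 5.49 on CAF 3, with 5.77 to 5.87 on the others.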

How the results depend on the processing

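Over 21 alternatives no respiratory chain gene was called except with array weights, which called 3 (Atp5a1, Atp5k and Atp5mpl) and 1597 genes in all. The number of all genes called, 137, was 285 with array medians set equal, 50 without dim genes, 429 with each probe set tested singly and 46 with trend and robust variance. It was 0 with the label letters as a term, 1 against the ls normal arrays, and 0 to 166 with 1 array left out. Deviations of same-numbered arrays from their group means correlated over genes at 0.34, -0.53, -0.48, -0.06 and -0.09. Differently numbered arrays were not compared in this way, so these values cannot tell whether the arrays were paired. With the number as a replicate block 0 genes and 0 members were called. The members' median difference ran from -0.22 to -0.05 with 1 array left out and was -0.16 after quantile normalisation, with 84 lower, and -0.09 with medians set equal, with 78 lower. With 1 array left out, the median ran from -0.22 to -0.02 for the complex I subunits and from -0.24 to 0.10 for the assembly factors. It ran from -0.22 to -0.07 for complex II and from -0.25 to -0.04 for complex III. For complex IV it ran from -0.15 to -0.095 and for complex V from -0.29 to -0.09. Over the alternatives, only the median of the complex I assembly factors changed sign (0.10 without normal 3, 0.04 without normal 4, 0.04 against the vs normal arrays). Of 1045 results for 50 named members, 978 kept direction and side of the threshold, and 64 in 18 genes changed sign; none of these differences was called, the largest were those of Cox6b2 and Ndufaf4 given here, and the cause was not tested. Values that changed sign were: with quantile normalisation Cox6b1 0.0353 and Ndufs1 -0.0556; with medians set equal Cox6b1 0.0414 and Ndufs7 0.0306; with the mean of probe sets Uqcrb -0.0846; with array weights Cox5a -0.0931, Cox6b2 0.227, Cox8a 0.00144, Ndufaf4 -0.158, Ndufs1 -0.0533 and Uqcrb -0.00957. Both with the label letters as a term and against the ls normal arrays they were Cox5a -0.144, Cox6b2 0.491, Cox8a 0.0567, Ndufa8 -0.0477, Ndufaf3 0.0181, Ndufaf4 -0.449, Ndufs1 -0.0813, Ndufv3 0.0233 and Uqcrb -0.0599. Against the vs normal arrays they were Atp5g1 0.000227, Atp5g3 0.0185, Cox6b1 0.0451, Cox7a2 0.0487, Cyc1 0.107, Ndufs7 0.0981, Ndufv1 0.0212 and Uqcrfs1 0.021. With 1 array left out, the ranges that crossed 0 were Cox5a -0.0997 to 0.0711, Cox6b1 -0.0518 to 0.0577, Cox6b2 -0.306 to 0.209, Cox7a2 -0.144 to 0.0501, Cox8a -0.115 to 0.00353, Cyc1 -0.201 to 0.0461, Ndufa8 -0.0056 to 0.117, Ndufaf4 -0.0858 to 0.461, Ndufs1 -0.0411 to 0.0639, Ndufs7 -0.177 to 0.116, Ndufs8 -0.327 to 0.0117, Ndufv1 -0.147 to 0.0497 and Uqcrb -0.0353 to 0.0506.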

Other observations

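The complex IV assembly factors, 18 genes, had a median difference of 0.06, with 8 lower in CAF, against -0.12 for the complex IV genes of the chain. The smallest p in each direction were those of Coa5 at 0.31 ± 0.09 (SE; limma adjusted p = 0.104) and Pet100 at -0.49 ± 0.21 (adjusted p = 0.202). The 3 complex V assembly factors all had higher means in CAF, with a median of 0.14, and 3 of the 4 complex II assembly factors did, with a median of 0.09. Of the 6 complex III assembly factors, 4 were lower, with a median of -0.05. Etfdh, which feeds electrons from fatty acid oxidation into ubiquinone, differed by 0.28 ± 0.07 (limma adjusted p = 0.0848). No gene of these lists passed the test.

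Among glycolysis and lactate genes named after their values were seen, Slc16a3, a lactate exporter, measured 8.22, 8.82, 7.26, 7.66 and 7.96 in CAF, against 9.81, 10.72, 9.43, 8.89 and 8.43 in normal cells. Pdk1, which restrains pyruvate entry into mitochondria, measured 8.49, 8.29, 8.36, 8.23 and 8.48 in CAF, against 9.66, 10.55, 9.00, 8.46 and 8.39 in normal cells. Both were highest on normal 2, the array on which 50 of the 91 respiratory chain genes were lowest and Ndufa4l2 highest. The genes of this list did not all do so. Hk1 and Pfkl were also highest on normal 2, at 12.09 and 12.52. Hk2 was at 11.68 there, below every CAF array, at 12.13 to 12.52. Aldoc was highest on normal 1, at 8.645, with 7.22 on normal 2.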
